A study of Mus musculus with 20 samples.

Results

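Trem1, Trem2, Trem3 and Treml4, 4 receptors of the Trem family, and Tyrobp, the adaptor through which they signal, were followed through the scRNA-seq and ATAC-seq data as a receptor family chosen by gene name. All 5 genes had a row in both scRNA-seq tables, among 15855 genes in cultured cells and 15333 in tumor cells. B-MF, macrophage-like cells grown from bone marrow (BM) B cells, and Mo-MF, grown from monocytes, were generated in medium conditioned by 4T1.2 cells, a mouse breast cancer line, and gave 2 libraries each. TAM were sorted from tumors of young BALB/c female mice bearing 4T1.2 cancer and gave 4 libraries. ATAC-seq, which maps open chromatin, covered naive mice, whose BM and spleen were each sorted into a CSF1R+ and a CSF1R- population, with 3 libraries per group. The labels call these cells macrophages and the study's text calls them B-cell precursors. The methods name C57BL/CJ or BALB/CJ mice as the source of cultured B cells, and no transgene or deletion is named for any of these groups. The labels do not say whether replicate cultures came from different mice, so the p-values below measure only the spread between these libraries.

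Trem receptors are small immunoglobulin-fold proteins of the myeloid surface whose tails carry no signaling motif. They pair in the membrane with Tyrobp (DAP12), whose ITAM is phosphorylated by Src-family kinases and then recruits Syk. Trem1 is best known as an amplifier of inflammation in neutrophils and monocytes, whereas Trem2 binds lipids and lipoproteins and is known from macrophages, osteoclasts and microglia. Trem3 is an activating receptor of mouse myeloid cells, and Treml4 is a family member of myeloid and dendritic cells that has been linked to the uptake of dying cells and to Toll-like receptor signaling.

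On the GRCm38 assembly (mm10) the receptors lie in one cluster on the plus strand of chromosome 17. Trem1 spans chr17:48232768-48246924, and 852 bases separate its end from the start of Trem3 at chr17:48247777-48258841. Treml4 follows at chr17:48264295-48275360, and Trem2 lies further along at chr17:48346401-48354147. Tyrobp is on the plus strand of chromosome 7, at chr7:30413760-30417585. These positions, and the start sites used for open chromatin, follow GENCODE. The 250 bases before the outermost start in GENCODE or RefSeq are shown for Trem1, Trem2 and Trem3, and for Trem1 and Trem3 that is a RefSeq start upstream of the GENCODE one. They are shown because the open chromatin described below differed among these 3 start sites. They were read from GRCm38.p6, plus strand, and GAGGAA or its reverse complement TTCCTC, the core of sites bound by the myeloid and B-cell factor PU.1, is in capitals.
Trem1, chr17:48232463-48232712: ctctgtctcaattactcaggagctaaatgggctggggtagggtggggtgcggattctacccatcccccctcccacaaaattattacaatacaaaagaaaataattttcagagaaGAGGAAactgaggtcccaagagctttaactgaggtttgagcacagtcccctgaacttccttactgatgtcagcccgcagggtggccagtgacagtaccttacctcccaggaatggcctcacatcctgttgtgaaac
Trem2, chr17:48346151-48346400: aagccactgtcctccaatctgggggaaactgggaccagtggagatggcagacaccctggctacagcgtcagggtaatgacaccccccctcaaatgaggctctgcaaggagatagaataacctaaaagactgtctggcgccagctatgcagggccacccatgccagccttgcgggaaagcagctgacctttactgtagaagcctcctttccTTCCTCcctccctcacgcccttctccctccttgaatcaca
Trem3, chr17:48247427-48247676: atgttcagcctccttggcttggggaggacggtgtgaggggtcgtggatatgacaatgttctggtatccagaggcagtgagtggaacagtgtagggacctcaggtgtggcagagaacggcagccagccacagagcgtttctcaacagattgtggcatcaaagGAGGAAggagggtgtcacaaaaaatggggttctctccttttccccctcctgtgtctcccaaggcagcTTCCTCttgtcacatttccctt
Searched on both strands, the 6 letters occurred 1 time before Trem1, 1 time before Trem2, 2 times before Trem3, 1 time before Treml4 and 1 time before Tyrobp. The motif was present in 23.3% of 32817 windows of that length from RefSeq starts, so its presence is a description of these windows and not of a bound site.

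The cells behind the scRNA-seq labels were checked against marker genes first. B-MF libraries held 5237 and 5326 cells, Mo-MF libraries 4846 and 5389, and TAM libraries 2 to 5 held 3180, 2318, 2387 and 3000. Median detected genes per cell ranged from 3400.5 to 3874 in the cultures and from 1566 to 2148 in the tumor, and at most 14 cell barcodes were shared by any pair of libraries. TAM libraries are named by the number in their column names, which the labels do not tie to single mice. A cluster with neutrophil markers, among them S100a8, S100a9, Ngp and Camp, made up 10.3% and 9.41% of the Mo-MF libraries and 0.0573% and 0% of the B-MF libraries. Summed over 12 neutrophil markers, the mean count was 5.18 and 4.84 in B-MF, with Ly6g, Ngp and Camp at 0, against 174 and 138 in Mo-MF. In the TAM libraries, neutrophil-like cells made up 35.8%, 62.8%, 47.6% and 55.7% of all cells, and monocyte/macrophage-like cells 61.4%, 32.1%, 45.5% and 38.0%. The sorted tumor cells therefore did not match the label of macrophage as a whole, and tumor levels are given by cell class or cluster as well as by library. The pathway lists further below compare whole culture libraries unless stated otherwise. Cells with fibroblast or basophil and mast cell markers, 49 in the cultures and 17 in the tumor, were set apart.

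Levels are given as the mean corrected count per cell, the unit that the authors' SCTransform normalization leaves after the natural log is undone. These values are not divided by gene length, and the culture and tumor tables were normalized separately, so levels set side by side across them were not tested. A share of cells with a gene counts cells with at least 1 corrected count of it.

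Trem2 and Tyrobp were present in nearly every cultured cell, and both were higher in B-MF than in Mo-MF. Trem2, the lipid-sensing receptor, had a mean count of 46.8 and 46.8 per cell in B-MF replicates 1 and 2, against 33.0 and 33.3 in those of Mo-MF. Both B-MF libraries lay above both Mo-MF libraries. Its log2 difference, B-MF minus Mo-MF, was 0.50 (SE 0.049; limma, Benjamini-Hochberg adjusted p = 0.000117). The transcript was found in 99.8% and 99.8% of B-MF cells and in 99.7% and 99.8% of Mo-MF cells, so the difference was one of amount per cell.

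Tyrobp, the shared adaptor, stood at 69.7 and 69.7 counts per B-MF cell, against 55.9 and 56.0 per Mo-MF cell. Again the libraries of the 2 cultures did not overlap. With 2 libraries each such a gap says little on its own, since genes that were not called, such as Hcst and Cbl, also had it. The share of all tested genes with such a gap is not given here. The log2 difference of Tyrobp was 0.32 (SE 0.049; limma, Benjamini-Hochberg adjusted p = 0.00135). Both member genes that passed the filter of a mean of 0.1 were thus called, where 39.5% of the 8633 genes tested were called in either direction and 22.6% were called higher in B-MF. The share called moves with the libraries that enter, since leaving out 1 library gave from 1991 calls (without Mo-MF replicate 1) to 5535 calls (without B-MF replicate 2).

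The higher level of both genes in B-MF was also seen within most clusters. The monocyte/macrophage-like cells of B-MF sat mostly in clusters 1 and 2 and those of Mo-MF in clusters 0 and 8, so this class holds different clusters in the 2 cultures. Among monocyte/macrophage-like cells, B-MF had a mean Trem2 of 49.0 and 48.4, above the 34.2 and 34.3 of Mo-MF. Among cycling cells B-MF had 42.3 and 41.0, and Mo-MF 35.4 and 34.7. Tyrobp gave the same order, with 73.9 and 72.9 against 53.5 and 54.2 in monocyte/macrophage-like cells and 54.0 and 53.1 against 45.4 and 46.9 in cycling cells. Cluster 0 had few B-MF cells, 9 and 16, and there Trem2 was lower in B-MF, at 32.1 and 32.1 against 34.6 and 34.7, while Tyrobp overlapped, at 67.6 and 52.3 against 53.3 and 54.0. In each of the unnamed clusters 3, 6 and 7 both B-MF libraries lay above both Mo-MF libraries for Trem2 and for Tyrobp, although cluster 3 had only 12 and 5 B-MF cells. Trem2 was 21.7 and 24.1 against 17.5 and 19.4 in cluster 6, led by immunoglobulin transcripts, and 45.8 and 44.9 against 36.8 and 38.1 in cluster 7, led by Fth1, Gng11 and Fabp4. Pooled, the unnamed cells had less Trem2 in B-MF, 24.7 and 27.3 against 36.0 and 36.1, and less Tyrobp, 36.6 and 41.2 against 57.3 and 57.3. Cluster 6, where both genes were lowest of the 3, made up 279 of 326 and 203 of 241 of them in B-MF and 138 of 1319 and 142 of 1406 in Mo-MF. When neutrophil-like cells and clusters led by other cell types or by immunoglobulin and mitochondrial transcripts were left out of every library, the log2 difference was 0.44 for Trem2 (limma, Benjamini-Hochberg adjusted p = 0.000237) and 0.38 for Tyrobp (adjusted p = 0.000634), with 35.8% of all tested genes called.

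**Figure D1:**
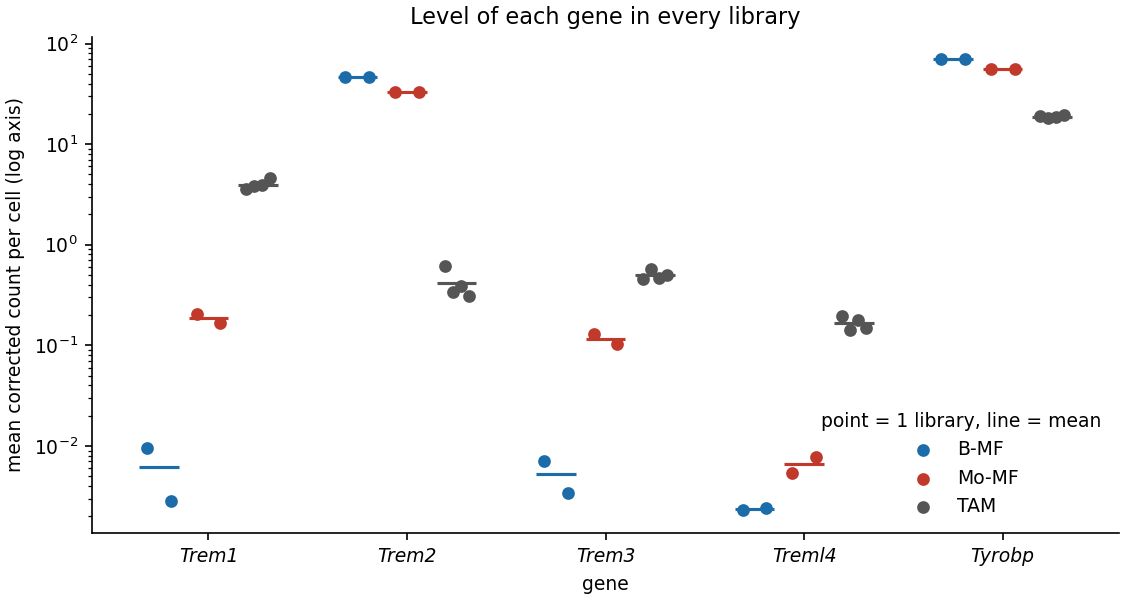
Mean corrected count per cell (log axis) of the 5 genes, with 1 point per library and a line at the mean of the B-MF, Mo-MF and TAM libraries. Trem2 and Tyrobp are highest in B-MF, whereas Trem1 is at 0.00955 and 0.00282 in B-MF, at 0.204 and 0.167 in Mo-MF and between 3.57 and 4.56 in TAM, and the tumor libraries were normalized separately from the cultures.

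Trem1, the inflammatory receptor, was nearly absent from B-MF. B-MF libraries had a mean count of 0.00955 and 0.00282, from 34 of 5237 and 12 of 5326 cells, and Mo-MF libraries 0.204 and 0.167, from 340 of 4846 and 315 of 5389 cells. Both Mo-MF libraries lay far above both B-MF libraries. Averaged over the libraries Trem1 stayed under the filter. With no filter on low means, where 23.1% of 15855 genes were called, its log2 difference was -1.43 (SE 0.082; limma, Benjamini-Hochberg adjusted p = 0.00531), on a scale of log2 of the mean plus 0.1 that understates the change of such low genes.

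Within Mo-MF, the Trem1 counts came from the neutrophil-like cells. These were 10.3% and 9.41% of cells and held 94.5% and 94.9% of the Trem1 counts in the 2 libraries. Their mean Trem1 count was 1.87 and 1.69, with the transcript in 59.9% (exact 95% interval 55.5 to 64.2) and 55.8% (51.4 to 60.2) of cells. Monocyte/macrophage-like cells had a mean of 0.0128 and 0.00677 in Mo-MF and of 0.00742 and 0.00301 in B-MF, so that in this class the libraries of the 2 cultures overlapped. Within the class, most Trem1 of Mo-MF came from cluster 8, 123 cells led by Ccr2, Vcan and Ly6c2, genes of monocytes, with a mean of 0.433 and 0.238. Cluster 0, which held 2658 and 3020 of the Mo-MF cells, had 0.00339 and 0.00166.

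Trem3, the neighbor of Trem1, followed it. B-MF had a mean count of 0.00707 and 0.00338, and Mo-MF 0.129 and 0.103, with no overlap between cultures. With no filter on low means the log2 difference was -1.04 (SE 0.071; limma, Benjamini-Hochberg adjusted p = 0.00700). Neutrophil-like cells held 94.7% and 95.2% of the Trem3 counts in Mo-MF. On a finer clustering of these cells, those rich in the granule genes Ngp, Camp and Ltf had a mean Trem3 count of 3.74 and 3.74, present in 93.2% and 87.1% of cells, against 0.557 and 0.596 in the granule-poor cells with the highest Cxcr2. In mean count Trem1 ran the other way between these 2 groups, at 1.24 and 1.28 in the granule-rich and 2.79 and 2.63 in the granule-poor cells. The shares of cells with Trem1 were closer, 58.1% and 49.5% in the granule-rich and 56.7% and 56.5% in the granule-poor cells. The remaining group, with the lowest Cxcr2, had a mean Trem1 of 1.27 and 1.04. Treml4 was at 0.00229 and 0.00244 in B-MF, where Mo-MF had 0.00537 and 0.00779, and its log2 difference with no filter was -0.06 (limma, Benjamini-Hochberg adjusted p = 0.143).

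Neutrophil-like cells of the Mo-MF cultures also carried Trem2. Its mean count in them was 17.7 and 19.0, present in 98.0% and 98.2% of cells, which was 51.9% and 55.4% of the level in monocyte/macrophage-like cells of the same library. The 10 macrophage markers checked beside it, among them Adgre1, Csf1r, Mertk and the C1q subunits, stood at 36.0% to 76.7% of their macrophage level in the same cells. The 3 finer groups of neutrophil-like cells differed in Trem2. Granule-rich cells had the least, 9.73 and 8.83, and the granule-poor cells with the highest Cxcr2 had 12.2 and 12.4. The group with the lowest Cxcr2 had 29.15 and 28.95. Its median detected genes were 4154 and 4084, against 2453 to 2914 in the others. Doublets were not removed and no caller was run, and the part of doublets or of free RNA in these counts was not tested. Of the cells set apart by markers of other types, 16 of 16 and 12 of 12 had Trem2 in the same Mo-MF libraries. Their mean count was 14.6 and 12.8. In B-MF 0 of 11 and 2 of 10 had it, but the set-apart cells need not be of the same type in both cultures. Over whole libraries, summed basophil and mast cell markers were 0.352 and 0.138 in Mo-MF against 0.00115 and 0.000751 in B-MF. Fibroblast markers were 0 and 0.0210 in Mo-MF against 0.162 and 0.142 in B-MF. Tyrobp in neutrophil-like cells was 70.5 and 69.6, above the 53.5 and 54.2 of monocyte/macrophage-like cells in the same libraries.

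In tumor cells Trem1 was widespread and Trem2 was limited to a part of the cells. Trem1 had a mean count of 3.57, 3.79, 3.95 and 4.56 in TAM libraries 2 to 5, in 66.4%, 71.4%, 71.8% and 73.3% of cells. Trem2 had a mean of 0.616, 0.340, 0.385 and 0.311, in 30.6%, 17.3%, 20.8% and 17.6% of cells. Library 2, which had the most monocyte/macrophage-like cells, was highest for Trem2 and lowest for Trem1. Trem3 ranged from 0.452 to 0.579 and Treml4 from 0.143 to 0.197 over the 4 libraries. Tyrobp varied little, at 19.2, 18.2, 18.4 and 19.4, and was present in at least 98.3% of cells of every library.

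The cell classes of the tumor separated Trem1 from Trem2. Trem1 had a mean over libraries of 6.60 in neutrophil-like cells, with single libraries from 5.27 to 7.49, and of 1.57 in monocyte/macrophage-like cells, from 1.43 to 1.70. The neutrophil-like value was higher in 4 of 4 libraries. Trem2 was reversed. Its mean was 0.0501 (0.0351 to 0.0809 over libraries) among neutrophil-like cells, against 0.823 (0.698 to 0.929) among monocyte/macrophage-like cells. On the log2 scale with 0.1 added, neutrophil-like minus monocyte/macrophage-like cells gave 1.78 to 2.31 for Trem1 and -2.93 to -2.48 for Trem2 over the 4 libraries. These classes come from clustering the same cells, so the differences are a description without a test.

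The highest Trem2 level in the tumor was in osteoclast-like cells, a cluster of 67 cells with Ctsk, Acp5 and Atp6v0d2. Trem2 had a mean of 3.27 there, with single libraries from 2.70 to 3.77, and was present in 52 of 67 cells, 77.6% (exact 95% interval 65.8 to 86.9). Trem1 was found in 0 of 67 of these cells, which allows a share of up to 4.48%, and Trem3 likewise in 0 of 67. This limit, set at 3 cells, is one on cells with a counted transcript and not on cells that express the gene, and such intervals and limits cover counting error only. Dendritic-like cells, marked by Ccr7 and Fscn1, had Trem1 in 11 of 105 and Trem2 in 1 of 105 cells.

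Classes that should lack these receptors were taken as a background. It need not hold for every class, since osteoclast-like cells had Trem1 in 0 of 67. In B-like cells Trem1 was found in 59 of 242 (24.4%) and Trem2 in 4 of 242 (1.65%). B-like cells with Trem1 only had a mean Tyrobp of 8.44, 4.14 and 6.57 in libraries 3 to 5. Those with neither receptor had 1.70, 1.53 and 1.27, and whether the first were doublets was not tested. In T/NK-like cells Trem1 was found in 10 of 78 (12.8%) and Trem2 in 3 of 78 (3.85%). Median detected genes were 1753 in B-like and 2454 in T/NK-like cells, against 1321 to 1618 over the neutrophil-like and 2340 to 2685 over the monocyte/macrophage-like clusters. The share of monocyte/macrophage-like cells with Trem1, 54.6% to 59.6% over libraries, lay above both pooled values. By library, B-like cells had Trem1 in 5 of 8, 10 of 51, 28 of 75 and 16 of 108 cells of libraries 2 to 5, and the 62.5% of library 2 was above its monocyte/macrophage-like share. The share of neutrophil-like cells with Trem2 was 5.19%, 2.27%, 2.55% and 2.99% in libraries 2 to 5, which lay between the pooled background values in libraries 3 to 5 and above them in library 2. In library 2 itself, 0 of 8 B-like and 0 of 19 T/NK-like cells had Trem2, too few to set a background for it, and these low shares are not read as expression.

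Single clusters resolved the levels further. Trem1 was highest in clusters 5, 7 and 2, all neutrophil-like, with means over libraries of 9.80, 9.35 and 7.73 whose library ranges overlapped between neighbors. Neutrophil-like cluster 0, with Ccl3 among its leading genes, was lower, at 4.14, without overlap with the next above. Among the monocyte/macrophage-like clusters, Trem1 was 1.90 in the Arg1-led cluster 1, 1.45 in the Ccr2-led cluster 3, 1.35 in the C1q-led cluster 6 and 1.22 in the MHC class II-led cluster 4. The last 3 overlapped in their library ranges, and cluster 6, from 0.870 to 1.74, also overlapped cluster 1, from 1.68 to 2.01.

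Trem2 after the osteoclast-like cells was highest in the C1q-led cluster, at 1.33, with no library below the next cluster. The Arg1-led, Ccr2-led and MHC class II-led clusters followed at 0.765, 0.729 and 0.672, overlapping each other. Trem3 was highest in neutrophil-like cluster 7, led by the granule genes Ngp, Ltf and Camp, at 1.30, with no overlap with the 0.855 of cluster 5 next to it. The granule-rich cells thus had the most Trem3 in the tumor as in the Mo-MF cultures. Treml4 had its highest means, 0.233 to 0.292, in clusters 3, 4, 5 and 6, whose library ranges overlapped, and a mean of 0.0427 in granule-rich cluster 7.

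Tyrobp was carried at a like level by both large classes, with single libraries from 18.7 to 20.8 for neutrophil-like cells and from 18.8 to 20.2 for monocyte/macrophage-like cells, so that their ranges overlapped. It was lower in osteoclast-like cells (12.3 to 18.3 over libraries), cycling cells (11.3 to 15.6) and dendritic-like cells (4.68 to 6.04). The lowest values, 1.88 to 4.36 in T/NK-like and 2.14 to 3.16 in B-like cells, overlapped each other.

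**Figure D2:**
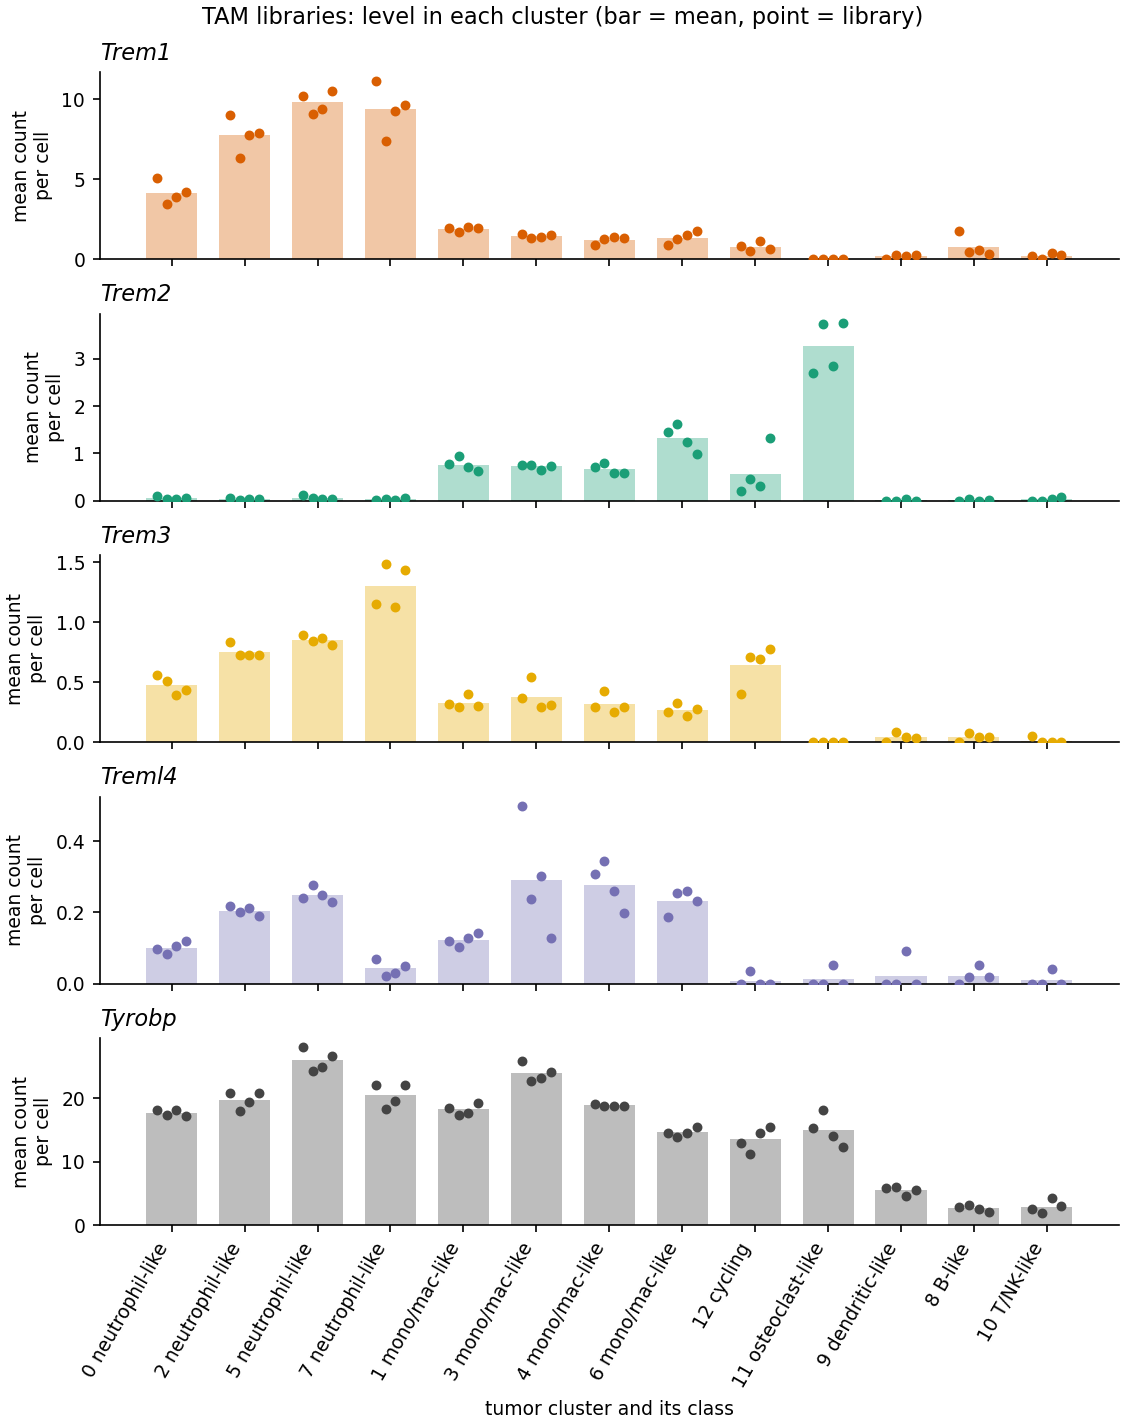
Mean corrected count per cell of the 5 genes in each of the tumor clusters (horizontal axis, with the class of each), as bars for the mean over the 4 TAM libraries and points for single libraries. Trem1 is highest in neutrophil-like clusters 5 and 7 (9.80 and 9.35), Trem2 in osteoclast-like cluster 11 (3.27) and C1q-led cluster 6 (1.33), and Trem3 in granule-rich cluster 7 (1.30), while Tyrobp is spread over the myeloid clusters.

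Whether Trem1 and Trem2 exclude each other in single cells was read from the share of cells with both, set against the product of the shares with each. In the tumor, 16.01%, 9.36%, 11.98% and 10.7% of cells of libraries 2 to 5 had both transcripts, where independence would give 20.3%, 12.4%, 14.9% and 12.9%. The ratio of observed to expected was 0.787, 0.757, 0.803 and 0.829, below 1 in 4 of 4 libraries. Counting only cells with at least 2 counts of each gene lowered it to 0.534, 0.516, 0.585 and 0.597. Thinning every cell to 5000 counts gave 0.692, 0.697, 0.724 and 0.751, with no cell too shallow to be used. These counts were already corrected for depth, so thinning them cannot test the part of a cell's original depth.

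Most of this deficit lay between clusters. When the expected share was computed within each cluster and summed, the ratio was 0.954, 0.976, 0.968 and 1.001. In monocyte/macrophage-like cells alone, 23.5%, 24.9%, 23.7% and 23.9% of cells had both against 25.0%, 25.7%, 24.6% and 24.0% expected, ratios of 0.938, 0.969, 0.962 and 0.996. At 2 counts or more the ratios in this class were 0.788, 0.885, 0.871 and 0.904. At 1 count or more, about as many monocyte/macrophage-like cells thus had both transcripts as their separate shares would give. At 2 counts or more fewer did in every library. Strict exclusion was not seen in the counts of any library. Doublets were not removed, and 24.4% of B-like tumor cells also had Trem1. The part of doublets or free RNA in cells with both transcripts was not tested, so these shares cannot settle exclusion in single cells.

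Over this class as a whole, Trem2 was lower in cells with Trem1. Monocyte/macrophage-like cells with Trem1 had a mean Trem2 count of 0.761, 0.840, 0.652 and 0.639, and those without Trem1 had 1.11, 1.04, 0.888 and 0.786. The value was lower with Trem1 in 4 of 4 libraries. It was widest in the C1q-led cluster, with 1.18, 1.07, 0.954 and 0.779 in cells with Trem1 and 1.59, 1.96, 1.46 and 1.15 in cells without. The Arg1-led cluster had the same order in 4 of 4 libraries. In the Ccr2-led cluster it turned in 2 libraries, with 0.781 against 0.736 in library 3 and 0.675 against 0.629 in library 4, and in the MHC class II-led cluster in library 3, with 0.825 against 0.787. Spearman's rho between the 2 counts across monocyte/macrophage-like cells was between -0.088 and -0.028 in the 4 libraries, a weak relation among cells that share a library and its free RNA, given as a description. The MHC class II-led cluster had ratios of observed to expected of 1.08, 1.22, 1.01 and 0.960.

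**Figure D3:**
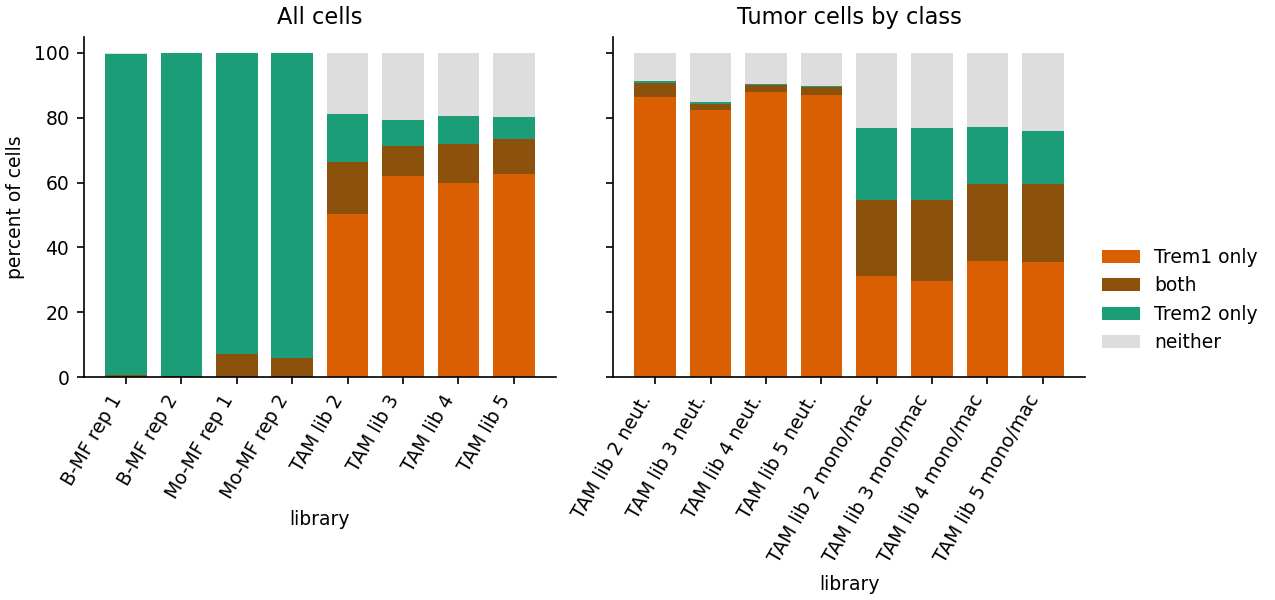
Percent of cells with Trem1 only, both genes, Trem2 only or neither, stacked for each library over all cells (left) and for the neutrophil-like (neut.) and monocyte/macrophage-like (mono/mac) cells of each TAM library (right). Culture libraries are nearly all Trem2 only, neutrophil-like tumor cells nearly all Trem1 only or neither, and 23.5% to 24.9% of monocyte/macrophage-like tumor cells have both.

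In the cultures Trem2 was present in nearly every cell, so the ratio could hardly leave 1. Every Trem1-positive B-MF cell, 34 of 34 and 12 of 12, also had Trem2. In Mo-MF, 334 of 340 and 309 of 315 Trem1-positive cells had Trem2, with ratios of 0.985 and 0.983. The amount differed more than the presence. Mean Trem2 was 19.2 and 19.96 in Mo-MF cells with Trem1 and 34.0 and 34.1 in those without, the first group being largely the neutrophil-like cells described above. Within the neutrophil-like cells the 2 values were closer, 18.4 and 19.4 with Trem1 against 16.8 and 18.5 without.

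The genes whose cluster profile was most like that of each member were taken over 9 tumor clusters of at least 20 cells in every library. They were ranked among 5905 genes by the mean of the 4 libraries' Pearson correlations. This rule left out the osteoclast-like cluster, which had the highest Trem2 and no Trem1, and the B-like, T/NK-like and cycling clusters. The clusters share libraries, and the correlations are a description. For Trem1 the closest were Cyp4f18 (0.978), Slc16a3, Tarm1, Hcst (0.974) and Gng12. Hcst encodes DAP10, the other small adaptor of this receptor class, which signals through PI3-kinase. For Trem2 they were Apobec1 (0.988), Fkbp2, Aprt, Psap and Lpxn. For Trem3, Lrg1 (0.967) came first and Trem1 (0.959) next, and for Treml4 Btk (0.883) led. Tyrobp was most like Ncf4 (0.977), a subunit of the phagocyte oxidase, followed by Sirpb1a, Cd300ld and Sirpb1c, 3 genes of activating receptors that pair with ITAM adaptors. Trem1 and Trem2 had a correlation of -0.31.

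The rest of the pathway was read from 8 gene lists for the comparison of B-MF and Mo-MF. Each count below stands beside the 39.5% of all tested genes called and a median log2 difference over all genes of 0.02. Among ligands of Trem1 or Trem2, 9 of 10 were measured and 4 tested, of which B-MF had 1 higher and 3 lower. The median log2 difference was -1.25, and without neutrophil-like cells and other types it was -0.75, with 1 higher and 2 lower of 3 tested. Pglyrp1, a granule protein that binds Trem1, had a mean count of 0.00687 and 0.00451 in B-MF against 1.65 and 1.20 in Mo-MF (log2 -3.83). It passed the filter only through Mo-MF and fell below it once neutrophil-like cells and other types were left out together. Apoe, the apolipoprotein bound by Trem2, had 146 and 139 in B-MF against 507 and 499 in Mo-MF (log2 -1.82). Lgals3, encoding galectin-3, was also lower in B-MF (log2 -0.68). Hmgb1, an alarmin reported to engage Trem1, was the member of the list that was higher (log2 0.40).

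Of the other Trem-family genes only Treml2 was tested. It had 0.294 and 0.279 in B-MF against 0.515 and 0.488 in Mo-MF (log2 -0.64). ITAM adaptors and other receptors that couple to Tyrobp numbered 18, of which 10 were tested, 1 was higher, 6 were lower and 3 were not called, with a median log2 difference of -0.22. The higher one was Fcer1g, the Fc receptor gamma chain, the other ITAM adaptor of macrophages, at 50.5 and 50.4 in B-MF against 42.3 and 42.4 in Mo-MF (log2 0.25). Both ITAM adaptors were thus higher in B-MF, whereas Sirpb1c (log2 -1.44), Plxna1, a semaphorin receptor that works with Trem2 and Tyrobp (log2 -0.88), and Cd300c2 (log2 -0.41) were lower. Sirpb1c had 0.0537 and 0.0449 in B-MF against 0.307 and 0.300 in Mo-MF and passed the filter only through Mo-MF. Hcst had 1.32 and 1.34 in B-MF against 1.48 and 1.44 in Mo-MF and was not called (limma, Benjamini-Hochberg adjusted p = 0.0761).

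Among 26 tested kinases and effectors, 4 were higher, 10 lower and 12 not called, with a median log2 difference of -0.09. Syk, the kinase that docks on the Tyrobp ITAM, had 2.36 and 2.37 in B-MF against 3.06 and 2.98 in Mo-MF, lower in both B-MF libraries (log2 -0.34; limma, Benjamini-Hochberg adjusted p = 0.00107). The Src-family kinases did not move together, since Fgr (log2 -1.52) and Src (log2 -1.30) were lower in B-MF and Lyn (log2 0.21) was higher. Fgr and Src passed the filter only through Mo-MF, so a lower level in B-MF was the only call open to them. Src had 0.0258 and 0.0240 in B-MF against 0.206 and 0.210 in Mo-MF. Fgr fell below the filter once neutrophil-like cells and other types were left out together, where Lyn had a log2 difference of 0.36. Lyn lost its call when either Mo-MF library was left out. The PI3-kinase subunit Pik3r1 (log2 0.50) and the NF-kappaB adaptor Malt1 (log2 0.27) were higher, and the ubiquitin ligase Cblb (log2 -0.83) was lower.

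The list drawn up as inhibitors of ITAM signaling was divided, with 5 higher, 4 lower and 7 not called of 16 tested. Whether each gene inhibits such signaling in these mouse cells was not tested. Dok2, an adaptor that dampens tyrosine kinase signaling, was higher in B-MF (log2 1.12), as were the receptor genes Cd33 (log2 0.36) and Clec12a (log2 0.31). The difference of Cd33 was 1.02 on the log2 scale without neutrophil-like cells and other types. Dok3 (log2 -0.58), Cd300lf (log2 -0.50) and Sirpa, the receptor for CD47 (log2 -0.40), were lower. The difference of Dok3 shrank to -0.39 without neutrophil-like cells and other types. Proteases that shed or cleave Trem receptors counted 0 higher and 4 lower of 8 tested, among them Psen2 (log2 -0.56) and Aph1c (log2 -0.40), both parts of gamma-secretase. Adam10, the main sheddase of Trem2, was at 0.997 and 0.970 in B-MF against 0.915 and 0.914 in Mo-MF and was not called (limma, Benjamini-Hochberg adjusted p = 0.171).

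The lipid program associated with Trem2 did not follow Trem2 as a whole. Of 26 genes tested, Trem2 itself among them, 4 were higher in B-MF, 16 lower and 6 not called, with a median log2 difference of -0.30. Gpnmb, a lysosomal glycoprotein of lipid-laden macrophages, had 127 and 128 in B-MF against 66.3 and 64.1 in Mo-MF (log2 0.97), and the lipase gene Lpl was higher as well (log2 0.75). Plin2, which coats lipid droplets (log2 -1.66), and Axl, a receptor for dying cells (log2 -1.36), were lower beside Apoe. Without the other cell types the list counted 6 higher and 17 lower.

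**Figure D4:**
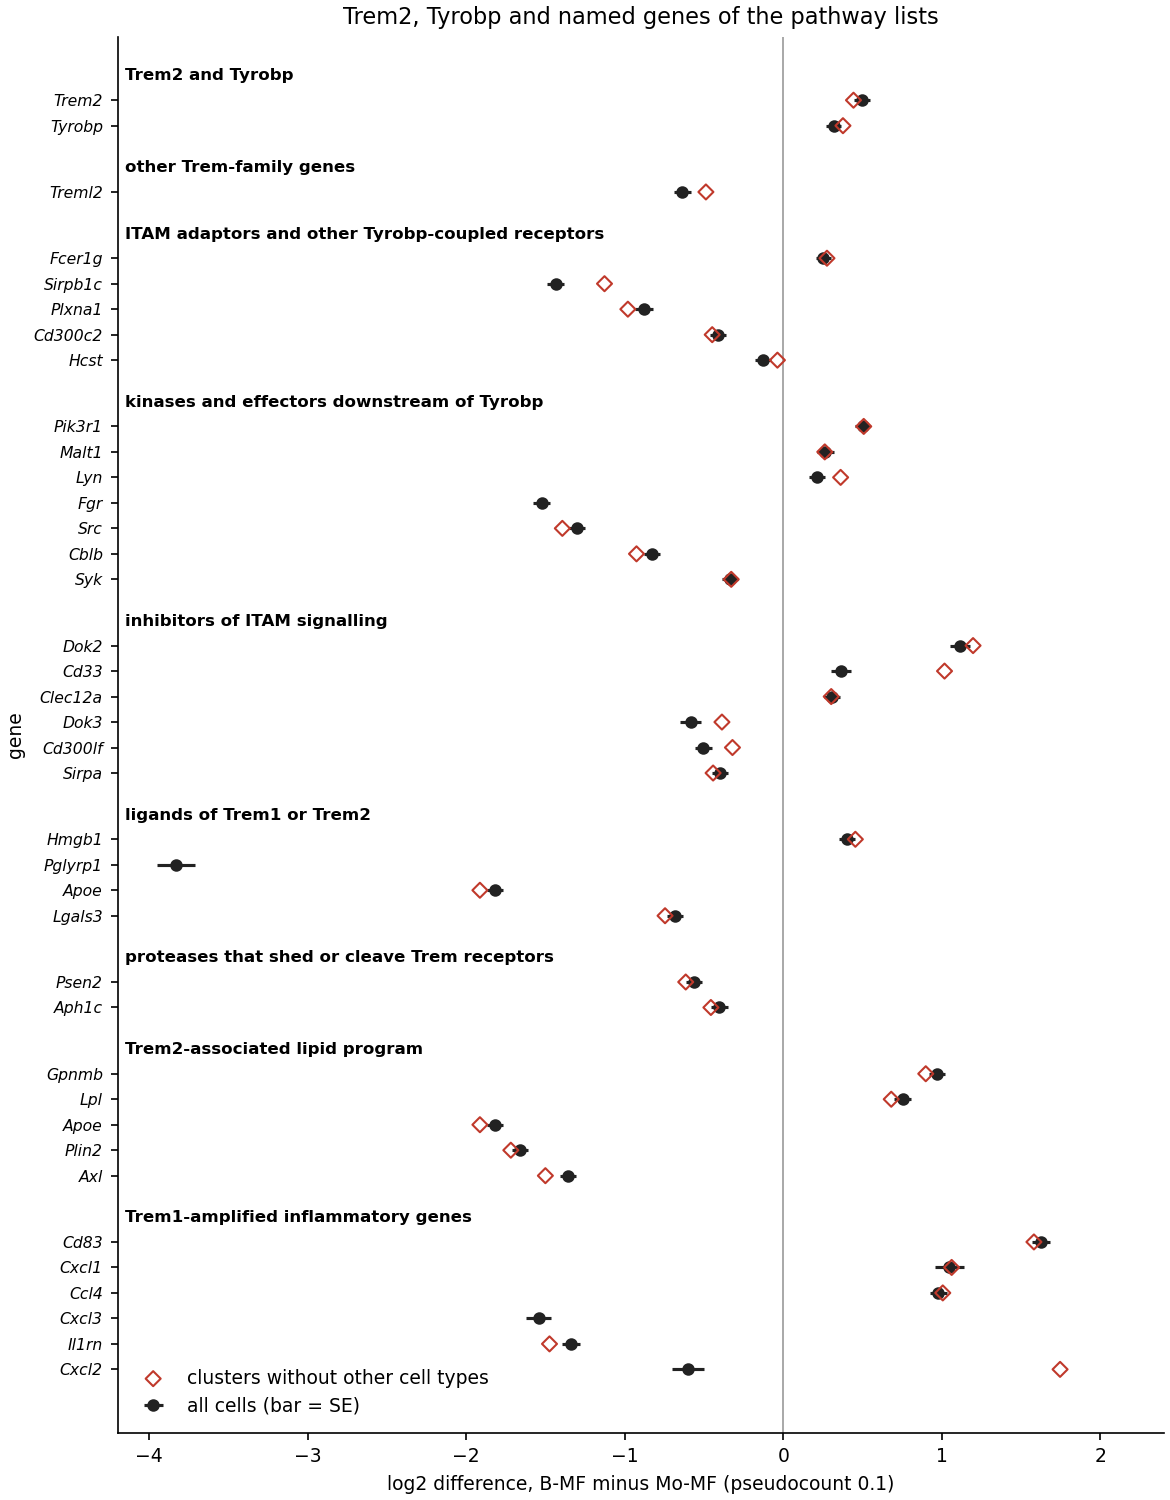
Log2 difference in mean corrected count, B-MF minus Mo-MF, of Trem2, Tyrobp and the genes named from each pathway list, over all cells (black points, with the SE as bars) and in clusters without other cell types (open red diamonds, missing where a gene fell below the filter). Trem2 and Tyrobp lie to the right of 0 in both settings, Pglyrp1 lies farthest to the left at -3.83, and Cxcl2 changes side from -0.60 to 1.75.

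Inflammatory genes that Trem1 is known to amplify were mostly higher in B-MF, although Trem1 itself was nearly absent there. Of 18 tested, 13 were higher, 3 lower and 2 not called, with a median log2 difference of 0.59. The activation marker Cd83 (log2 1.63) and the chemokines Cxcl1 (log2 1.05) and Ccl4 (log2 0.98) were higher, and Cxcl3 (log2 -1.54) and Il1rn, the interleukin-1 receptor antagonist (log2 -1.34), were lower. Cxcl3 fell below the filter once neutrophil-like cells and other types were left out. Cxcl2 and Il1b, the latter named after its values were seen, turned with the cells included. Cxcl2 had 2.47 and 1.95 in B-MF against 3.53 and 3.23 in Mo-MF (log2 -0.60), yet without neutrophil-like cells and other types its log2 difference was 1.75. Il1b was not called over all cells (log2 -0.18; limma, Benjamini-Hochberg adjusted p = 0.222) and had a log2 difference of 1.61 without them. In that setting 16 of 17 tested genes of the list were higher in B-MF and 1 was lower, with a median log2 difference of 1.01.

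Open chromatin at the 5 genes was compared over the 101333 regions formed from the peaks of all 12 ATAC-seq libraries. BM libraries had 65832 to 76530 peaks and spleen libraries 43407 to 50392, and the depth of single libraries is unknown. At the 5 genes and 5 kb to either side lay 15 regions. None of them had a peak in all libraries of 1 CSF1R group and in none of the other within BM or within spleen. The background for such patterns was 0.613% (CSF1R+ only) and 0.503% (CSF1R- only) of regions in BM and 0.439% and 0.0336% in spleen. With 3 against 3 libraries, no exact test of 1 region can go below p = 0.1.

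The start sites of the receptors differed instead by gene and tissue. The Trem1 start site, chr17:48232421-48233057, was open in 12 of 12 libraries, as were 30.1% of all regions. Its fold enrichment was 10.3, 18.8 and 16 in CSF1R+ BM, 14.9, 13.7 and 13.8 in CSF1R- BM, 23.0, 16.7 and 13.1 in CSF1R+ spleen and 20.8, 17.3 and 16.1 in CSF1R- spleen. Within each tissue the CSF1R+ and CSF1R- libraries overlapped, and the CSF1R+ libraries of the 2 tissues overlapped as well. The 3 CSF1R- spleen values lay above the 3 of CSF1R- BM. The share of all regions with such a gap is not given here, and a difference in fold between the tissues was not tested. At Trem2 there was no peak at the start site, and its only region, in an intron at chr17:48347379-48347631, had a peak in CSF1R+ BM replicate 3 alone, with a fold of 5.01.

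Trem3 was open by tissue at its start. The region over its start, chr17:48247104-48248089, had a peak in 6 of 6 BM libraries and in 0 of 6 spleen libraries, with folds of 9.31, 9.23 and 12.1 in CSF1R+ and 13.9, 10.8 and 12.8 in CSF1R- cells. BM-only regions made up 11.2% of all regions and spleen-only regions 2.01%, and the BM libraries had more peaks, whose part in this pattern was not tested. At Treml4 a region just upstream of the start, chr17:48263334-48264294, had a peak in 11 of 12 libraries. Another over an exon, chr17:48274776-48275280, had a peak in 12 of 12. The introns of Treml4 carried a BM-only and a spleen-only region. The one at chr17:48267472-48267935 was open in the 6 spleen libraries only (folds 8.48 to 19.4), and the one at chr17:48272224-48272532 in the 6 BM libraries only (folds 3.83 to 5.59). At Tyrobp, a region just upstream at chr7:30412484-30413402 was open in 12 of 12 libraries with folds of 13.6 to 20.2, as were 30.1% of all regions, and the start site itself at chr7:30413622-30414061 in 9 of 12.

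**Figure D5:**
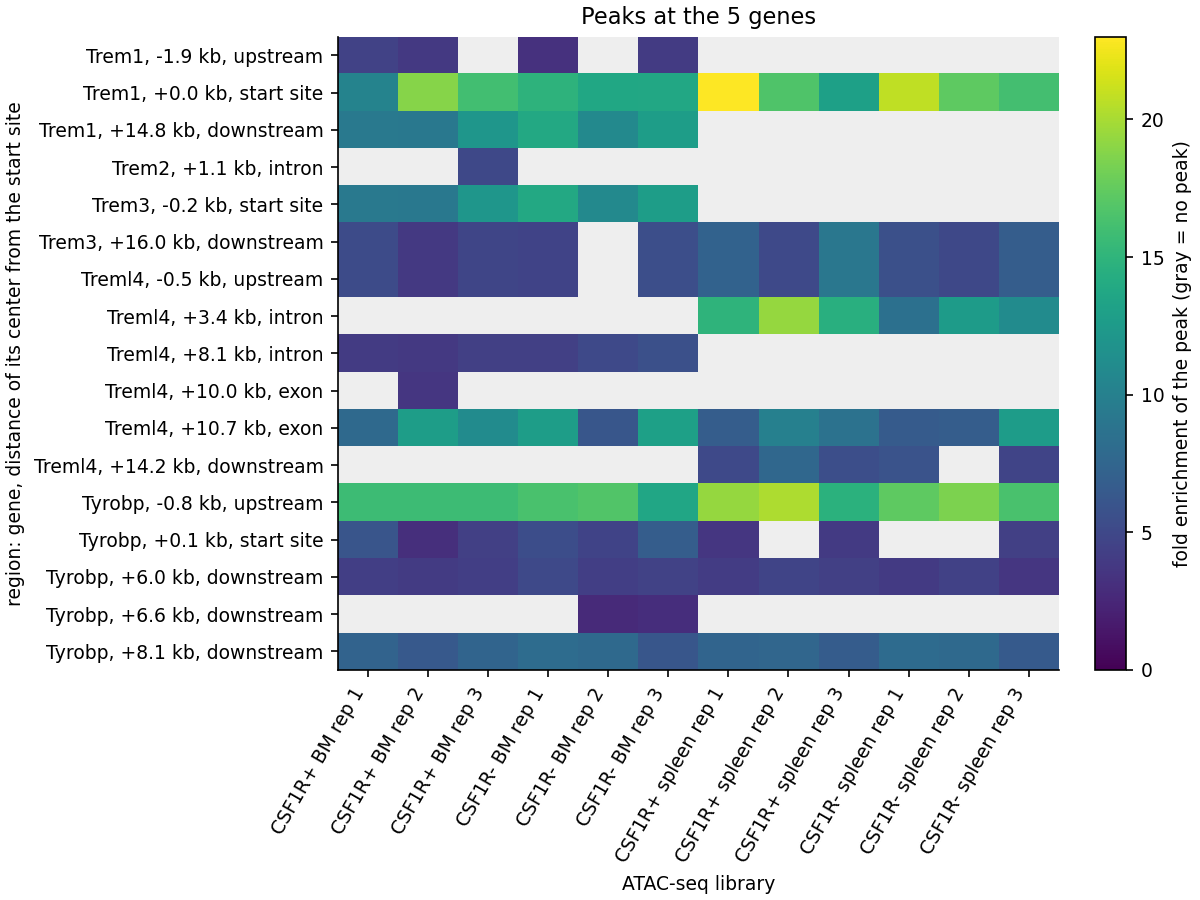
Fold enrichment of the deposited peaks (color, with gray for no peak) in the 12 ATAC-seq libraries (columns) for each region at the 5 genes (listed by gene and by the distance of the region center from the start site in kb). The Trem1 start site has a peak in 12 of 12 libraries, the Trem3 start site in the 6 BM libraries, and Trem2 a peak in 1 library. A region near 2 genes is drawn under each.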

How the data were processed

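Transcripts of the scRNA-seq libraries were counted by the authors with Cell Ranger, cells with few detected genes were removed, and SCTransform was applied. The deposited values are natural logs of the corrected counts with 1 added. Undoing the log gave whole numbers within 1e-05, and these were averaged over the cells of each library. Because they are not raw counts, no count model was fitted. For B-MF against Mo-MF, log2 of the mean plus a pseudocount of 0.1 was tested with limma 3.58.1 where the mean reached 0.1, and p-values were adjusted after Benjamini-Hochberg over all tested genes, with a threshold of 0.05. With 2 libraries per culture, most of the estimate of the spread comes from pooling over genes.

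Cells of each table were clustered with leidenalg 0.10.2 (2000 variable genes, 30 components, 20 neighbors, resolution 0.5). After the data were seen, a cluster was given a class where at least 3 and at least 50% of a list's markers were above the mean over clusters and the share of cells with them was on average higher than over clusters, monocyte and macrophage lists were merged, cells with 3 or more fibroblast or basophil and mast cell markers were set apart, and a cluster stayed unnamed where it had under 50 cells, was led by immunoglobulin and mitochondrial genes, or met the osteoclast list with none of its markers among the leading genes (culture cluster 7). Doublets were not removed.

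For ATAC-seq, the authors trimmed reads with cutadapt, aligned them to mm10 with BWA, removed duplicates and blacklisted regions, and ran MACS on each library. The deposited lists give a fold enrichment and the −log10 of p and q per peak, without read counts. Peaks sharing at least 1 base were merged across libraries. The annotation was GENCODE for GRCm38. Tool names follow the submitters' processing notes and the methods.

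The 5 genes and all gene lists were chosen with earlier results of these data known. From each list the text names, in each direction, the 3 called genes with the largest log2 difference whose libraries do not overlap, plus Hcst, Fcer1g and Syk, and for each member the 5 genes most like it by Pearson correlation of log2 of the mean plus 0.1 across tumor clusters. One gene that the rule selects among the proteases is not reported here. Adam10, Il1b and the marker genes fall outside this rule and were chosen after their values were seen. Alternatives were other pseudocounts, filters, means of the log values, a variance trend, the replicate block, leaving out libraries or other cell types, other resolutions, thinning, a stricter q-value and other overlaps. Samples were grouped by their labels, and the other data of the study were not used here. Python 3.11.15 and R 4.3.3 were used.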

Additional observations from a re-analysis of the deposited data

Results flagged for a closer look

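Of 31 measures of the 5 genes over the 4 TAM libraries, 2 had 1 library farther from the others than the 95% limit of Dixon's ratio allows, and chance marks about 1 in 20 groups in this way. Mean Treml4 in neutrophil-like cells was 0.129 in TAM library 3, the lowest of the 4 and apart from the rest, beside a mean over libraries of 0.152. Mean Tyrobp in monocyte/macrophage-like cells was 20.2 in TAM library 5, the highest of the 4, beside a mean over libraries of 19.2. The cause of these differences was not tested.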

How the results depend on the processing

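The log2 differences of Trem2 and Tyrobp between B-MF and Mo-MF kept their direction and stayed called under every alternative tried. The number of genes called was 1991 without Mo-MF replicate 1, 2132 without Mo-MF replicate 2, 5198 without B-MF replicate 1 and 5535 without B-MF replicate 2, where the group left with 1 library is assumed to vary like the other, and 4 member genes were called with no filter on low means and 3 when either B-MF library was left out. Cxcl2 turned to 0.18 and Il1b to 0.13 when the deposited natural-log values were averaged, and to 1.75 and 1.61 in clusters without other cell types. With the replicate number as a block the differences were 0.50 for Trem2 (limma, Benjamini-Hochberg adjusted p = 1.94e-14) and 0.32 for Tyrobp (adjusted p = 1.89e-06), and 3908 genes were called. The block leaves too few libraries to estimate the spread of a gene. These p-values take it almost wholly from other genes and are not read as stronger evidence. Over 8633 genes the deviations of same-numbered libraries had a correlation of 0.13, but with 2 pairs the numbers were not taken to pair the samples. In TAM, neutrophil-like minus monocyte/macrophage-like differences at a pseudocount of 1 were 1.56 for Trem1, -0.79 for Trem2, 0.35 for Trem3 and -0.059 for Treml4, and at 0.01 they were -3.84 for Trem2 and 1.06 for Trem3. The mean ratio of observed to expected cells with Trem1 and Trem2 in TAM was 0.558 at 2 counts or more, 0.716 after thinning, 0.975 summed over clusters and 0.966 in monocyte/macrophage-like cells. In Mo-MF it was 0.989, 0.988, 1 and 0.910 in the same order, and in B-MF 0.958 after thinning and 1 in the last pair of settings. The 0.910 of Mo-MF rests on few cells, since 24 of 26 and 17 of 19 cells with Trem1 also had Trem2. The count of regions at the 5 genes specific to a CSF1R group ranged from 0 to 1 when 1 library was left out, with 1 without CSF1R- BM replicate 1, and BM-only regions numbered 1 with a coverage of 50% of the region asked of each peak. The cause of these shifts was not tested. Precision is limited by 2 libraries per culture, by clusters of few cells and by peak lists without read counts.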
